A study of Homo sapiens with 4 samples.

Results

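The genes described here are the 39 protein-coding members of the 4 human HOX clusters, out of 64252 genes in the count table. They were chosen by symbol (HOX, a cluster letter from A to D and a number) in the GENCODE 44 annotation and joined to the counts by Ensembl identifier, and all 39 were found. HOXA held 11 of them, HOXB 10, HOXC 9 and HOXD 9. The RNA came from SK-N-BE(2), an established human neuroblastoma cell line, which carried either a scrambled control hairpin (sh-Scb) or a hairpin against SAPCD2 (sh-SAPCD2). Both hairpins were delivered by lentivirus and cells with a stable insert were selected with puromycin, so control cells had also passed through infection and selection. Each group had 2 libraries of one cell line. The labels do not state that the libraries came from separate cultures, so p-values measure the spread between these libraries, which may be technical. Libraries held 25347900 to 31850997 counts.

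HOX genes encode homeodomain transcription factors that give cells of the embryo their position along the head-to-tail axis. They lie in clusters, and genes at the same relative position in different clusters are descended from a common ancestor and form a paralogue group, numbered from the 3′ end (anterior, early) to the 5′ end (posterior, late). The genes are switched on and kept off through Trithorax and Polycomb chromatin complexes, and their proteins bind DNA with TALE partners of the PBX, MEIS and PKNOX families. Neuroblastoma arises from the neural crest, in which HOX expression records the level of the body axis.

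SAPCD2 (ENSG00000186193), the targeted gene, had 2308 and 2263 counts in the sh-Scb libraries, and 895 and 1648 in the sh-SAPCD2 libraries. Its level, as TMM-scaled CPM (counts over the library total, scaled to 1000000), was lower in both sh-SAPCD2 libraries than in either control, at 35.4 and 52.5 CPM against 83.6 and 82.2. The log2 fold change (sh-SAPCD2 over sh-Scb) was -0.91 (SE 0.193, adjusted p = 0.0206 by the edgeR quasi-likelihood test, with p-values adjusted by the Benjamini-Hochberg method across 18779 genes). All adjusted p-values below come from this fit unless another fit is named. The sympathetic (adrenergic) markers PHOX2A, HAND2, GATA3, ISL1, TH and DBH were each at 54.6 CPM or more in every library. Mesenchymal markers were present too, with VIM at 518 to 1197 CPM and CD44 at 108 to 124 CPM. NOTCH2 had 38.8 to 102 CPM and FN1 28.5 to 46.3 CPM, while YAP1 had at most 0.545 CPM and PRRX1 was at 0. ISL1 and DBH were lower upon knockdown, 2 of 6 adrenergic markers described here, and FN1, NOTCH2 and VIM, 3 of 5 mesenchymal markers tested, were lower as well, against 12.5% of all tested genes. ISL1 and FN1 lost the call when either sh-Scb library was left out (adjusted p up to 0.288 and 0.235). Of 9 markers of other cell types, HBB was at 0 in all libraries, and the endothelial markers PECAM1 and CDH5 had at most 0.398 CPM. PTPRC (8.94 to 12.4 CPM) and DCN (21.8 to 30.9 CPM) were above this, and the summed level of the 9 markers was 46.5 and 48.8 CPM in sh-Scb and 45.2 and 41.1 CPM in sh-SAPCD2. The part of other cells in the results was not tested.

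The HOX program of these cells came from HOXC and HOXD, while HOXA and HOXB were silent at this depth. A gene was taken as detected where it had at least 3 counts in a library, which equals 0.0942 to 0.118 CPM (counting error only). By this measure 15 of 39 HOX genes were detected in all 4 libraries, against 70.4% of the 19550 protein-coding genes in the table. The 15 comprised 7 of 9 HOXC genes and 8 of 9 HOXD genes, and no HOXA or HOXB gene. In HOXA and HOXB together, 20 of 21 genes had a count of 0 in every library, and HOXA10 had 2 counts in a single sh-Scb library. By comparison, 16.6% of protein-coding genes had no count in any library. A share of 0 counts allows up to 3 counts of the library, so the statement holds to that limit.

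**Figure D1:**
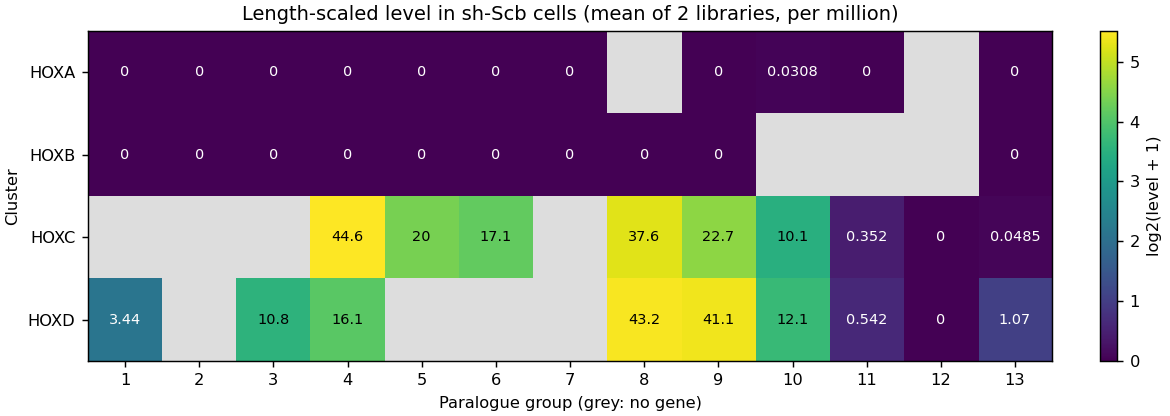
Length-scaled level of each HOX gene in sh-Scb cells, by cluster (rows) and paralogue group (columns). The colour is log2(level + 1) and the printed value is the mean level of 2 libraries, in counts per kb of exon scaled to a sum of 1000000. Grey squares hold no gene. The HOXA and HOXB rows are at or near 0, and the highest values are those of HOXC4, HOXD8 and HOXD9.

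The other genes annotated inside HOXA and HOXB had no counts either. HOXA spans chr7:27092993-27200091 and HOXB chr17:48528526-48728750 on GRCh38 (107.1 and 200.2 kb). Of the other annotated genes inside these spans, 22 of 22 in HOXA and 16 of 16 in HOXB had no count in any library. The noncoding genes HOTAIRM1 and HOTTIP of HOXA were among them, as were short RNA genes, pseudogenes and the protein-coding PRAC1 and PRAC2 of HOXB. Over the whole count table, 29317 of 64252 genes had no count in any library. Some of the surrounding genes were expressed. Beside HOXA, HIBADH had 1127 to 1384 counts and TAX1BP1 2993 to 3592, and beside HOXB, CALCOCO2 had 1453 to 1559. The nearest protein-coding gene on each side of HOXB had few or no counts, with 0 for SKAP1 and 1 to 7 for TTLL6. SKAP2, on the 3′ side of HOXA, had 32 to 53 counts, and EVX1, the homeobox gene next to HOXA13, had none.

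Because HOXC and HOXD lack some paralogue groups, the set of proteins that could be made was limited. Groups 2 and 7 have members in HOXA and HOXB alone, and none was detected. In group 12, HOXC12 and HOXD12 were both at 0. In groups 4, 8, 9, 10 and 11, the HOXC and the HOXD member were both detected. HOXC5 and HOXC6 were the detected members of groups 5 and 6, and HOXD1, HOXD3 and HOXD13 those of groups 1, 3 and 13. HOXC13 was not counted as detected, with 0 and 2 counts in sh-Scb and 2 and 5 in sh-SAPCD2.

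Levels differed along both clusters, and were high mid-cluster and, in HOXC, also at the anterior end. In sh-Scb cells the length-scaled level (counts per kb of exon, scaled to a sum of 1000000) was 44.6 for HOXC4, 43.2 for HOXD8, 41.1 for HOXD9 and 37.6 for HOXC8. HOXC4 and HOXD8 overlapped between libraries (43.8 and 45.5 for HOXC4, 43.8 and 42.5 for HOXD8), so their order is not resolved. HOXC9 (22.7), HOXC5 (19.97), HOXC6 (17.1) and HOXD4 (16.1) formed the next level. HOXD4 ranged from 10.3 to 21.9 between the control libraries, so it was not separable from HOXC5 and HOXC6, nor from HOXD10, HOXD3 and HOXC10 below. HOXD10, HOXD3 and HOXC10 lay between 10.1 and 12.1, and neighbours among them overlapped. At the ends of the clusters, the level was 3.44 for HOXD1, the most anterior gene, and 1.07 for HOXD13, 0.542 for HOXD11 and 0.352 for HOXC11. In sh-SAPCD2 cells HOXC4 (71.4) and HOXD9 (58.2) led, and HOXD8 (19.0) came sixth. With the length of the canonical transcript in place of all exons, HOXC4, HOXD8, HOXD9 and HOXC8 were again ranks 1 to 4, and HOXC6 moved from rank 7 to rank 5. The distances between levels depended on the length used. HOXC4 then had 47.0, and HOXD8 (28.2), HOXD9 (26.8) and HOXC8 (24.5) lay near HOXC6 (23.3). Exon sharing, described with the fold changes, limits the level of HOXC5, HOXC4 and HOXC6.

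**Figure D2:**
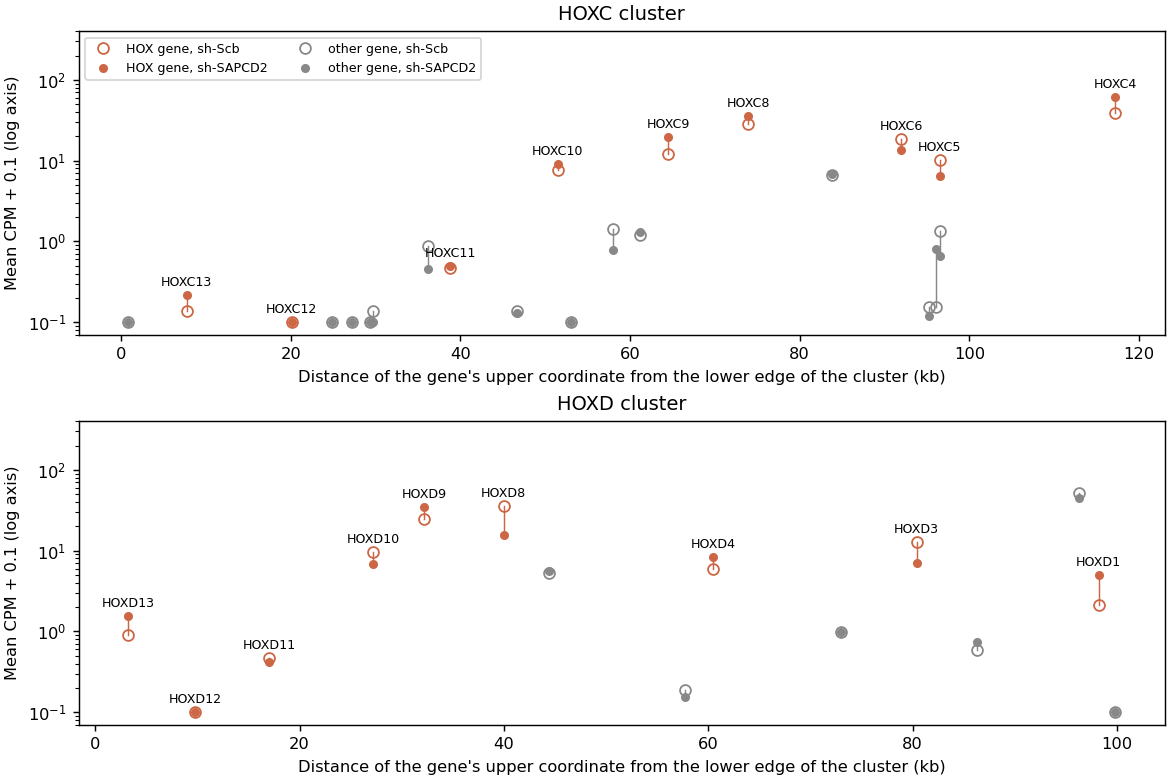
Mean CPM + 0.1 (log axis; 2 libraries per group) of every gene inside HOXC and HOXD against the distance of its upper coordinate from the lower edge of the cluster (kb). Orange marks HOX genes and grey other genes, open circles sh-Scb and filled circles sh-SAPCD2. Levels of HOX genes are low at the posterior end (left) and highest in the middle or, in HOXC, at HOXC4. In HOXD the other gene HAGLR, near the right end, lies above them (52.2 CPM in sh-Scb, 44.2 in sh-SAPCD2). The lines between circles run in both directions within each cluster.

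Upon SAPCD2 knockdown, genes of the same cluster changed in opposite directions. The 15 detected genes were also the 15 that passed the filter on low counts, and 24 did not. Of the 15, 3 rose (HOXC4, HOXC9 and HOXD1) and 3 fell (HOXC5, HOXD3 and HOXD8) at an adjusted p under 0.05. Over all tested genes 12.4% rose and 12.5% fell (24.8% in either direction). HOXD1 rose and HOXD8 fell by more than 1 on the log2 scale, a threshold passed with the adjusted p by 4.69% and 5.15% of all tested genes upward and downward (9.84% in all). The median log2 fold change of the 15 was 0.27, against 0.02 for all tested genes. The CPM values of the groups did not overlap for 12 of the 15, and for 67.0% of all tested genes. In a bulk sample, fewer cells that express a gene and less RNA per cell cannot be told apart.

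**Figure D3:**
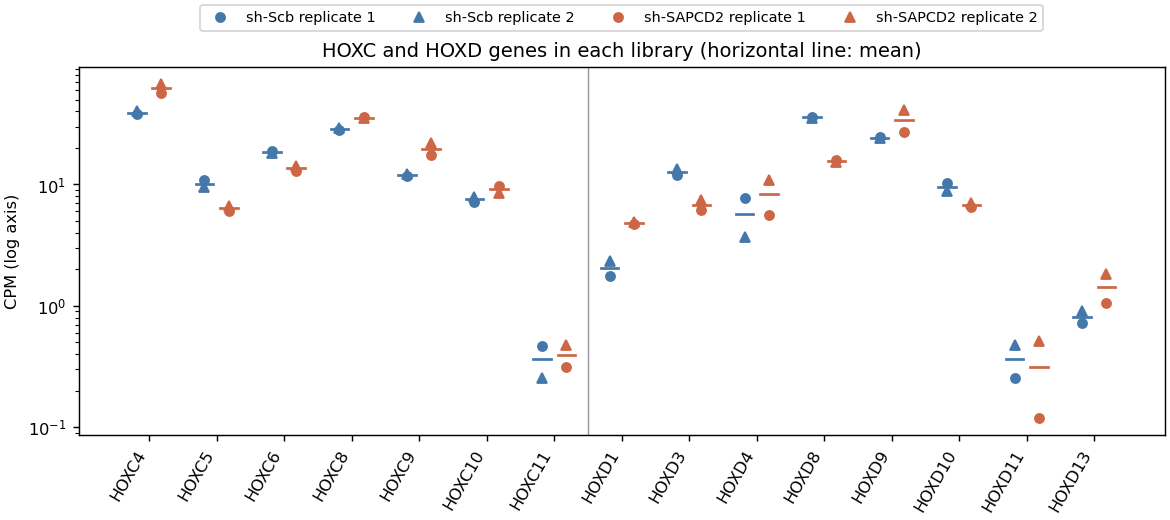
CPM (log axis) of the 15 tested HOX genes in each library, with HOXC on the left and HOXD on the right. Circles and triangles are replicates 1 and 2, colours the groups, and horizontal lines the mean of 2 libraries. HOXD8, HOXD3 and HOXD1 separate the groups clearly, while HOXD4 and HOXD11 differ as much between libraries of a group as between groups.

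HOXD8 (ENSG00000175879, chr2:176129694-176132695), a mid-cluster gene, showed the strongest evidence of change. It had 998 and 978 counts in the sh-Scb libraries, and 403 and 481 in the sh-SAPCD2 libraries. This equals 36.1 and 35.5 CPM against 15.9 and 15.3, and the groups were far apart relative to the spread within each. The log2 fold change was -1.20 (SE 0.128, adjusted p = 0.00368). It was the single HOX gene called in all 12 alternative fits, with values from -1.23 to -1.17. HOXD-AS2 lies on the opposite strand over 24.4% of the exon bases of HOXD8, and without strand its reads cannot be told apart from those of HOXD8. HOXD-AS2 itself had 152 and 136 counts in sh-Scb and 92 and 231 in sh-SAPCD2.

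HOXD3 (ENSG00000128652, chr2:176136612-176173102), an anterior group gene, fell as well. It had 331 and 366 counts in sh-Scb, and 156 and 236 in sh-SAPCD2 (11.98 and 13.3 CPM against 6.16 and 7.51). Exons of HOXD-AS2, HAGLR or ENSG00000272729 lie opposite 14.1% of the exon bases of HOXD3, so the limit of strand applies here too. The log2 fold change was -0.88 (SE 0.183, adjusted p = 0.0197). Without sh-Scb replicate 2 the adjusted p was 0.0985.

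HOXD1 (ENSG00000128645, chr2:176188668-176190907), at the anterior end of the cluster, went the other way. It rose from 49 and 64 counts to 120 and 155 (1.77 and 2.33 CPM against 4.74 and 4.94). The groups did not overlap, and the log2 fold change was 1.24 (SE 0.247, adjusted p = 0.0175). The count is low, and 60.1% of its exon bases lie opposite exons of the noncoding gene HAGLR or of ENSG00000279160. HAGLR had 1364 and 1515 counts in sh-Scb and 1223 and 1258 in sh-SAPCD2 (log2 fold change -0.24, adjusted p = 0.258). Without sh-Scb replicate 1 the adjusted p of HOXD1 was 0.0877. The summed level of all 9 HOXD genes was 93.5 and 89.0 CPM in sh-Scb and 67.1 and 89.5 in sh-SAPCD2, so the groups overlapped.

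The other HOXD genes did not pass the threshold. HOXD10 had 285 and 241 counts in sh-Scb and 166 and 221 in sh-SAPCD2 (log2 fold change -0.49, adjusted p = 0.101). HOXD9, a neighbour of HOXD8, had 679 and 661 counts in sh-Scb and 680 and 1301 in sh-SAPCD2, so that the 2 knockdown libraries disagreed. Its log2 fold change was 0.49 (adjusted p = 0.147), and depended on the knockdown library kept. It was 0.76 (adjusted p = 0.00247) without sh-SAPCD2 replicate 1 and 0.15 (adjusted p = 0.284) without replicate 2. The correction for GC content and length gave 0.27 (adjusted p = 0.0675). HOXD4 overlapped between groups, with 215 and 102 counts in sh-Scb and 143 and 345 in sh-SAPCD2. Its log2 fold change of 0.54 (adjusted p = 0.405) became 1.17 (adjusted p = 0.0248) without sh-Scb replicate 1 and -0.02 without sh-SAPCD2 replicate 2. HOXD13, a posterior gene, had 20 and 25 counts in sh-Scb and 27 and 57 in sh-SAPCD2 (0.83, adjusted p = 0.189), and without sh-SAPCD2 replicate 2 the value was 0.39. HOXD11 had 3 to 16 counts, and the 95% interval of its log2 fold change ran from -2.03 to 1.71.

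In HOXC, HOXC4 and HOXC9 rose. HOXC4 (ENSG00000198353, chr12:54016931-54056030) had 1049 and 1102 counts in sh-Scb and 1435 and 2107 in sh-SAPCD2. This equals 38.0 and 40.0 CPM against 56.7 and 67.1, with no overlap (log2 fold change 0.67, SE 0.132, adjusted p = 0.0172). HOXC9 (ENSG00000180806, chr12:53994895-54003337), known to drive growth arrest and neuronal differentiation in neuroblastoma cells, had 326 and 334 counts in sh-Scb and 443 and 688 in sh-SAPCD2. This equals 11.8 and 12.1 CPM against 17.5 and 21.9 (0.72, SE 0.168, adjusted p = 0.0276). Exons of HOXC-AS2, which had 15 to 36 counts, lie opposite 9.78% of the exon bases of HOXC9. HOXC4 and HOXC9 lost the call when either sh-Scb library was left out, with adjusted p of 0.174 and 0.113 for HOXC4 and 0.159 and 0.132 for HOXC9. Such a fit has a lone control library, which is assumed to vary like the other group.

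HOXC5 fell, and its neighbour HOXC6 had a lower value that missed the threshold. HOXC5 (ENSG00000172789, chr12:54033050-54035361) had 300 and 260 counts in sh-Scb and 154 and 209 in sh-SAPCD2, or 10.9 and 9.45 CPM against 6.08 and 6.65 (log2 fold change -0.67, SE 0.180, adjusted p = 0.0409). DESeq2 gave an adjusted p of 0.0664, and without sh-Scb replicate 1 or 2 it was 0.319 or 0.128. HOXC6 had 526 and 504 counts in sh-Scb and 328 and 446 in sh-SAPCD2 (-0.46, SE 0.144, adjusted p = 0.0643). A correction for GC content and length brought HOXC6 to an adjusted p of 0.0156 and HOXC8 to 0.0224.

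These HOXC genes share transcripts, which bears on how counts were split. HOXC5 shares 67.3% of its exon bases on the same strand with ENSG00000273049 and ENSG00000273046. HOXC4 shares 17.5% of its bases with HOXC6 and ENSG00000273046, and HOXC6 shares 16.1% with HOXC9, HOXC4 and ENSG00000273046. ENSG00000273049 is a protein-coding readthrough model, with 3 and 0 counts in sh-Scb and 0 and 44 in sh-SAPCD2. The sum of HOXC5 and both overlapping genes was 331 and 300 counts in sh-Scb and 173 and 265 in sh-SAPCD2 (11.98 and 10.9 CPM against 6.83 and 8.44), so it stayed lower in both knockdown libraries. The sum of HOXC4, HOXC5 and HOXC6 was 67.9 and 67.8 CPM against 75.7 and 87.9, higher in both. How reads in shared exons were assigned was not given in the sources used here, and its part in the opposite changes of HOXC4 and HOXC5 was not tested.

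HOXC8 and HOXC10 had higher values that did not pass. HOXC8, which shares no exon with another gene, had 776 and 808 counts in sh-Scb and 909 and 1103 in sh-SAPCD2 (log2 fold change 0.31, SE 0.122, adjusted p = 0.118). HOXC10 had 199 and 218 counts in sh-Scb and 247 and 266 in sh-SAPCD2 (0.27, SE 0.179, adjusted p = 0.315), and without sh-SAPCD2 replicate 1 the value was 0.16. HOXC11 had 7 to 15 counts, with a 95% interval of -1.25 to 1.53. The summed level of HOXC was 115 and 118 CPM in sh-Scb and 139 and 154 in sh-SAPCD2, with no overlap and no test of the sum. Of this sum, HOXC4 was the largest contributor.

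**Figure D4:**
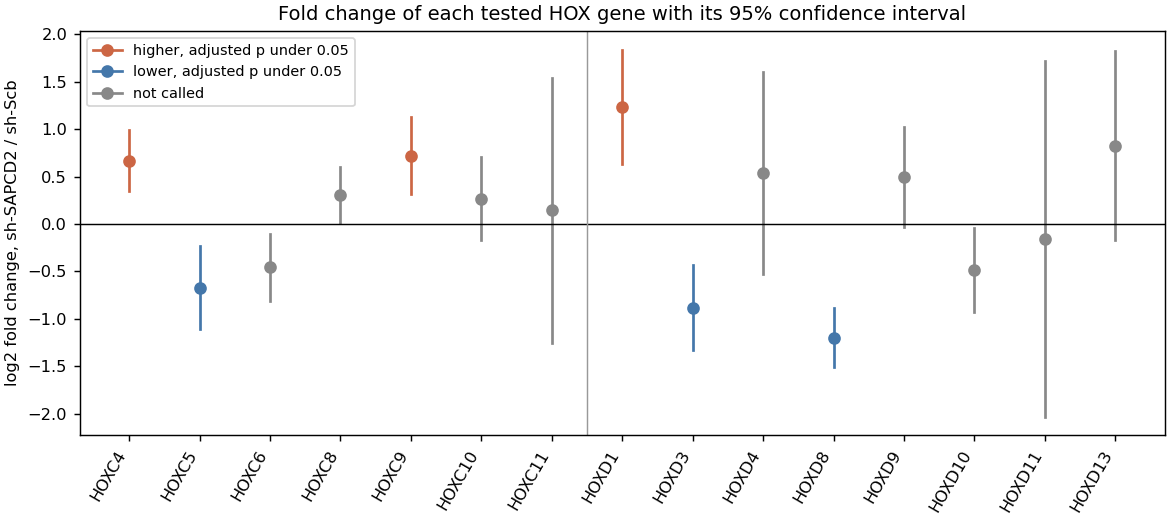
log2 fold change (sh-SAPCD2 over sh-Scb) of the 15 tested HOX genes with the 95% confidence interval of the edgeR fit, HOXC on the left and HOXD on the right, each from the anterior to the posterior gene. Orange marks higher and blue lower at an adjusted p under 0.05. The largest values of either sign are HOXD1 (1.24) and HOXD8 (-1.20), both within HOXD.

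The promoters of the called genes are shown because neighbours moved in opposite directions. A table of RefSeq promoters on GRCh38.p14 (250 bases before to 50 after a start, 35116 entries) held 20 of the 39 HOX genes and 5 of the 6 called, without HOXC9. Both strands were searched for the E-box CACGTG (a MYC family site), the CCAAT box, the GC box GGGCGG, the TATA box TATAAA, the E2F sequences TTTCCCGC, TTTGGCGC, TTTGCCGC and TTTCGCGC, and the PBX-HOX sequence TGATTGAT. Matches are in capitals, and none overlapped another in these windows. The windows are chr2:176129455-176129754 (HOXD8), chr2:176157057-176157356 (HOXD3), chr2:176188418-176188717 (HOXD1) and chr12:54016638-54016937 (HOXC4 and HOXC5), all on the plus strand.
HOXD8: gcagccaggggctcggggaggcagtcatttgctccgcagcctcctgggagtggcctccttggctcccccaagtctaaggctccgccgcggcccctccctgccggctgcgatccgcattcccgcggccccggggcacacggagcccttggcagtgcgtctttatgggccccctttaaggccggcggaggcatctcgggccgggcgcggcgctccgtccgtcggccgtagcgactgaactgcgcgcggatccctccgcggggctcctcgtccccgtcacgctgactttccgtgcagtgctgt
HOXD3: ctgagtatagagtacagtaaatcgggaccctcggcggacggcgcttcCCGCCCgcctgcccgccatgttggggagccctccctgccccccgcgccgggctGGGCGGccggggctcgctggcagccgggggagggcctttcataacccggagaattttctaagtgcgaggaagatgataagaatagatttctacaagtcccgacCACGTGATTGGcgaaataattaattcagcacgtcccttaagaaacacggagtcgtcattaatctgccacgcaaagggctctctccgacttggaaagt
HOXD1: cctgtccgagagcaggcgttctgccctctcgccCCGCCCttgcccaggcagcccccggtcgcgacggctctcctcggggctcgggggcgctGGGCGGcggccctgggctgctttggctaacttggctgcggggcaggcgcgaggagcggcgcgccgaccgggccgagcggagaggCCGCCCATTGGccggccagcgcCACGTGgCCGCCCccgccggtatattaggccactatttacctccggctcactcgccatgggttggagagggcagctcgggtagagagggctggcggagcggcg
HOXC4 and HOXC5: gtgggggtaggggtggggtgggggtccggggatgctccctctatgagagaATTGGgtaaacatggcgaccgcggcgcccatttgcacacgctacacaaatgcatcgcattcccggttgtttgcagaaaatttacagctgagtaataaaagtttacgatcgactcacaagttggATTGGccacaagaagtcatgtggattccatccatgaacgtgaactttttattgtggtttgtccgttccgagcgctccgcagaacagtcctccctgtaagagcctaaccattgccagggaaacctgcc

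HOXC4 and HOXC5, which changed in opposite directions, have the same window in the table. It covers the start of the HOXC4 gene model (chr12:54016931). The counted HOXC5 model starts downstream of it, at chr12:54033050. The HOXD3 window lies inside its gene model, past the start at chr2:176136612. The window of HOXC4 and HOXC5 held 2 CCAAT boxes, a motif present in 34.6% of all entries. The windows of HOXD1, which rose, and HOXD3, which fell, each held an E-box, found in 7.26% of all entries, besides a CCAAT box and GC boxes (45.0% of entries). The window of HOXD8 held none of the motifs searched. GC content was 71.7% for HOXD8, 58.0% for HOXD3, 74.3% for HOXD1 and 51.7% for HOXC4 and HOXC5, against a median of 58.7% over all entries. The windows held 34, 25, 36 and 15 CpG dinucleotides, against a median of 14. Among HOX genes with an entry, 9 had the E-box, in HOXA as in HOXD, and TATAAA was found in HOXA9, HOXA10, HOXA3 and HOXD13 (11.5% of entries). E2F sequences were found in HOXA3 alone.

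The hairpins themselves are another sequence to set beside the HOX genes. The labels do not say which of the study's hairpins against SAPCD2 was used, so the guide strands of both are shown, with the seed (bases 2 to 8) in capitals, as read from the hairpin oligos.
sh-SAPCD2 #1: aTGAAGGTggaatccagaggt
sh-SAPCD2 #2: aTCATCTCcaaaccctgcagc

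The complement of a seed in a 3′ UTR is a possible off-target site. Among tested protein-coding genes, 12.5% had the complement of the sh-SAPCD2 #1 seed (ACCTTCA) in the 3′ UTR of the canonical transcript, and 14.8% that of sh-SAPCD2 #2 (GAGATGA). Among the 15 tested HOX genes, ACCTTCA was found in HOXD8, HOXD10 and HOXC11, and GAGATGA in HOXC11 and HOXD1. The sites of HOXD8, HOXD10, HOXC11 and HOXD1 follow, with the seed match in capitals.
HOXD8: gtgtttcaagctACCTTCAtgtcactgctc
HOXD10: agcggaaacaaaACCTTCAccgctctttgt
HOXC11, ACCTTCA: tgaaatttctgtACCTTCAacctggtgtta
HOXC11, GAGATGA: gcactggggatgGAGATGAcctgcggggac
HOXD1: attcagctttttGAGATGAccaaagctagt

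Because the hairpin used is not known, genes with a site are described separately for each seed. With ACCTTCA, HOXD8 fell, and HOXD10 had a log2 fold change of -0.49 that did not pass the threshold. HOXC11, which has both sites, had a log2 fold change of 0.14 at 7 to 15 counts. Its confidence interval ran from -1.25 to 1.53, so its direction is not resolved. HOXD1, with GAGATGA, rose. HOXD3 and HOXC5, which fell, had neither. Of all tested protein-coding genes, 16.6% of those with ACCTTCA were called lower, against 13.6% of those without it. For GAGATGA the shares called lower were 15.55% with the site and 13.67% without it. The part of the hairpin in the change of HOXD8 was not tested.

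The long noncoding genes inside HOXC and HOXD were mostly weak and none passed the test. Of 58 other genes inside the 4 clusters, 9 were tested, all in HOXC or HOXD. Both edgeR and DESeq2 called 0 higher and 0 lower. The shares over all tested genes were 12.4% and 12.5% in edgeR, and 16.5% and 13.5% in DESeq2. At an unadjusted p under 0.05 in edgeR, 0 were higher and 1 (HOXC-AS2, named after its value was seen) was lower. Over all tested genes these shares were 20.0% and 19.4%. HOTAIR, the HOXC antisense RNA long linked to Polycomb complexes, had 27 and 16 counts in sh-Scb and 7 and 14 in sh-SAPCD2 (adjusted p = 0.178). HAGLR was the most abundant, at 1223 to 1515 counts. The miRNA gene MIR10B, next to HOXD4, had 1 to 3 counts, which says nothing of its mature form.

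Among the TALE cofactors, of which 8 chosen with earlier results known are described here, all 8 were tested, 1 rose and 0 fell in edgeR and in DESeq2. Over all tested genes, edgeR called 12.4% higher and 12.5% lower, and DESeq2 16.5% and 13.5%. At an unadjusted p under 0.05 in edgeR, 1 was higher and 3 were lower, against 20.0% and 19.4% of all tested genes. MEIS3 rose from 13.6 and 13.4 CPM to 18.8 and 23.9 (log2 fold change 0.66, SE 0.168, adjusted p = 0.0355), and without sh-Scb replicate 1 or 2 it did not pass (adjusted p = 0.181 and 0.204). The correction for GC content and length gave MEIS3 0.36 (adjusted p = 0.0577), and 0.36 with the replicate block added (adjusted p = 0.0654). PBX3 (93.1 to 105 CPM) and MEIS2 (98.7 to 129 CPM) were the most abundant of these. MEIS1 had 59.2 and 58.4 CPM in sh-Scb and 47.8 and 41.2 in sh-SAPCD2, at an adjusted p of 0.0622.

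Of 17 genes known to activate or maintain HOX expression, 15 were tested, with 2 higher and 4 lower, against 12.4% and 12.5% of all tested genes. KDM6B, a demethylase that removes the Polycomb mark, rose from 53.6 and 56.4 CPM to 99.6 and 121 (log2 fold change 1.00, SE 0.131, adjusted p = 0.00570). KMT2A, the Trithorax methyltransferase of HOX genes, fell from 405 and 401 CPM to 282 and 203 (-0.73, SE 0.162, adjusted p = 0.0236), but its adjusted p was 0.0515 without sh-Scb replicate 1. PSIP1, which tethers KMT2A to chromatin, fell from 288 and 281 CPM to 179 and 150 (-0.79, adjusted p = 0.00778). Retinoic acid receptors went both ways, with RARA higher (0.66) and RARB lower (-0.60), and CTCF, the boundary factor, was lower (-0.49). RARA, RARB and CTCF lost the call when either control library was left out. CDX2 and CDX4, activators of posterior HOX genes, were at 0 in all libraries.

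Of the 16 Polycomb and other repressors of HOX genes described here, all were tested, with 0 higher and 4 lower in edgeR, against 12.4% and 12.5% of all tested genes. DESeq2 called 2 higher and 5 lower (16.5% and 13.5% of all), and at an unadjusted p under 0.05 edgeR had 2 higher and 6 lower (20.0% and 19.4% of all). PHC1, of Polycomb complex PRC1, fell from 64.5 and 56.2 CPM to 15.8 and 17.5 (log2 fold change -1.85, SE 0.141, adjusted p = 0.00207). PHF19, which targets PRC2 to chromatin, fell from 58.4 and 58.8 CPM to 25.2 and 28.4 (-1.13, adjusted p = 0.00398). EZH2, the PRC2 methyltransferase, was 137 and 137 CPM in sh-Scb and 97.5 and 90.3 in sh-SAPCD2 (-0.54, adjusted p = 0.0143), and CBX2 was also lower (-0.72). PHC1 and PHF19 were called in all 12 alternative fits, while EZH2 and CBX2 lost the call when either control library was left out. No HOXA or HOXB gene was detected in the knockdown cells, in which 4 of these 16 repressors were lower.

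**Figure D5:**
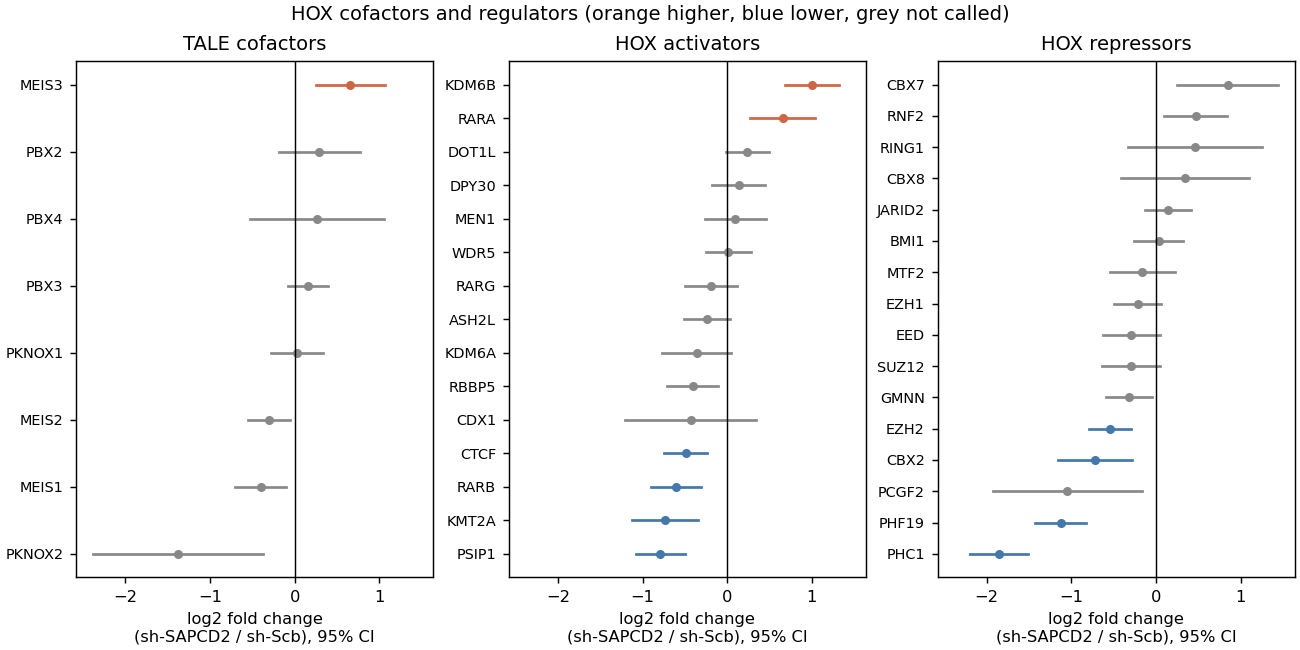
log2 fold change (sh-SAPCD2 over sh-Scb) with 95% confidence interval for the tested TALE cofactors, HOX activators and HOX repressors. Orange genes were higher and blue genes lower at an adjusted p under 0.05, and grey genes were not called. PHC1 has the lowest value (-1.85), and higher genes appear among the cofactors and the activators.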

How the data were processed

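RNA-seq of SK-N-BE(2) cells (2 sh-Scb and 2 sh-SAPCD2 libraries) was analysed. The authors aligned reads to hg38 with HISAT2 2.2.0 (submitters' processing notes), estimated abundances with StringTie and deposited whole-number counts per gene, which were used as deposited. The Ensembl release, the strandedness and the assignment of shared reads were not given in the sources used here. Groups came from the labels.

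Counts were scaled by TMM (factors 0.987 to 1.009) and tested with edgeR 4.0.16 (quasi-likelihood, R 4.3.3) after its filter (minimum count 10, minimum total 15). That left 18779 of 64252 genes, with a biological coefficient of variation of 15.4%. Genes were called at an adjusted p under 0.05, and also with an absolute log2 fold change over 1. Every gene was fitted, and the values of all 39 HOX genes, SAPCD2, called genes of the lists (at most 8 each) and the 3 nearest protein-coding genes beside each cluster could be named. Positions, exon lengths and exon sharing came from GENCODE 44 on GRCh38. The members and lists were chosen with earlier results of these data known. The fit was checked on simulated data. Some genes of the lists are not reported here. Alternatives were DESeq2 1.42.0, its size factors, library totals, no filter, a mean of 1 CPM, the replicate number as a block, a GC content and length correction, and leaving out each library.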

Additional observations from a re-analysis of the deposited data

How the results depend on the processing

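Of 178 values of tested HOX genes under the alternatives, 151 kept direction and call, 13 lost the call, 9 gained it and 5 changed sign. Sign changes concerned 3 genes that were not called: leaving out 1 library at a time gave -0.23 to 0.64 for HOXC11, -1.58 to 0.48 for HOXD11 and -0.023 to 1.17 for HOXD4. Without the filter on low counts, 34935 genes were tested and 2261 called, against 4665 of 18779 in the main fit. In that fit 1 HOX gene was higher (HOXD1) and 1 lower (HOXD8), and SAPCD2 had -0.91 with an adjusted p of 0.0749. Leaving out each library in turn gave a log2 fold change of -1.23 to -0.67 for SAPCD2. DESeq2 called 3 HOX genes higher and 2 lower, against 16.5% and 13.5% of all genes it tested. The GC content and length correction gave 4 and 4, with 7465 of all 18779 tested genes called. Same-numbered libraries did not deviate together (correlation -0.02). With 2 libraries per group, this value cannot show whether same-numbered libraries shared a culture or a batch. With the replicate block, 3 HOX genes were higher and 3 lower, with 5561 of all 18779 tested genes called. Detection in all libraries was 15 at 1 count and 13 at 10 counts. With 2 libraries per group and at most 16 counts in any library, HOXC11 and HOXD11 had wide intervals. The causes were not tested.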

Other observations

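The nearest protein-coding genes beside the clusters, taken at whatever distance they lay, give the surroundings of HOXC and HOXD. Of the 24 nearest protein-coding genes on both sides of the 4 clusters, 20 were tested, with 0 higher and 4 lower at an adjusted p under 0.05, in edgeR as in DESeq2, against 12.4% and 12.5% of all tested genes in edgeR. DESeq2 called 16.5% and 13.5% of all. At an unadjusted p under 0.05 in edgeR the numbers were also 0 and 4, against 20.0% and 19.4% of all tested genes. The fallers all lay on the anterior side, beyond HOXC4 and HOXD1. Beside HOXC, SMUG1, a DNA repair glycosylase, had 739 and 696 counts in sh-Scb and 289 and 501 in sh-SAPCD2 (log2 fold change -0.92, adjusted p = 0.0195). CBX5, a heterochromatin protein, had 17637 and 17735 counts in sh-Scb and 10875 and 11073 in sh-SAPCD2 (-0.71, adjusted p = 0.0110), and it lost the call without sh-Scb replicate 2 (adjusted p = 0.0558). HNRNPA1 (-0.37, adjusted p = 0.0267) lost the call under 6 of 12 alternatives, and the correction for GC content and length gave -0.23. On the HOXD side, HNRNPA3, a splicing factor, had 18997 and 19011 counts in sh-Scb and 9960 and 11600 in sh-SAPCD2 (-0.85, adjusted p = 0.00377). HNRNPA3 is a distant neighbour, as it starts at chr2:177212694 and HOXD ends at chr2:176190907. It was called in all 12 alternatives. On the posterior side of HOXD, EVX2, a homeobox gene next to HOXD13, had 21 and 22 counts in sh-Scb and 16 and 40 in sh-SAPCD2, and did not pass. No flanking gene of HOXA or HOXB passed.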
